A study of Mus musculus with 36 samples.

Results

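Intestinal organoids secrete or absorb fluid through the same transporters as the epithelium they are grown from, and 9 genes of this machinery were followed across 36 RNA libraries of mouse jejunal organoids. The genes were chosen by name, with earlier results of these data known. All are among the channels, cotransporters, exchangers and water channels usually discussed when organoids swell. The set makes up 9 of the 52636 genes listed in the count files. They are the chloride channels Cftr and Ano1, the basolateral transporters Slc12a2 and Kcnq1, the exchangers Slc26a3, Slc26a6 and Slc9a3, and the water channels Aqp1 and Aqp3. The question was whether their transcripts differ in the media in which organoids turn into spherical cysts instead of budding. In the study RNA was taken at an earlier day of treatment than the one on which cyst shape was scored.

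Organoids from crypts of 6 C57BL/6 mice were cultured in 6 conditions, with 6 libraries of each. In 4 of them the control antibody IgG was present, with complete media alone, medium conditioned by serum-deprived, quiescent mouse embryonic fibroblasts (QCM), medium conditioned by senescent ones (SCM), or complete media with the noncanonical Wnt ligand Wnt5a. In the remaining 2, SCM or Wnt5a was combined with an antibody against the receptor Ptk7 in place of IgG. No source used here ties a sex or an age to the mice whose crypts were taken. Library totals ranged from 9581589 to 21029769 counts. The epithelial markers Epcam, Cdh1, Krt8, Krt18 and Vil1 summed to between 5480 and 19900 CPM (counts scaled to a common library size) in a library, with the range rising from 5480 to 6960 in complete media to 8740 to 15400 in Wnt5a + IgG. Of markers of other cells, Kdr and Emcn (endothelium) and Col3a1 and Dcn (fibroblasts) were at 0 in every library, the 4 endothelial markers together stayed at or under 1.18 CPM and the 6 fibroblast markers at or under 7.24 CPM.

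In a secreting intestinal cell, chloride enters across the basolateral membrane through the sodium, potassium and chloride cotransporter Nkcc1 (Slc12a2), potassium recycles through channels such as Kcnq1, and chloride leaves at the apical face through Cftr, which opens under cyclic AMP. Ano1 is a chloride channel that opens when cytosolic calcium rises. Absorption runs the other way, through the apical sodium and proton exchanger Nhe3 (Slc9a3) working beside the chloride and bicarbonate exchangers Slc26a3 (Dra) and Slc26a6, and water follows the salt, in part through aquaporins. Loss of SLC26A3 causes congenital chloride diarrhea, and loss of CFTR causes cystic fibrosis and blocks the cAMP-driven swelling of intestinal organoids.

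Of the 9 genes, 8 were detected, here meaning a mean of at least 0.5 CPM over the 36 libraries after scaling by the trimmed mean of M values (TMM). Aqp3 was not detected, at a mean of 0.451 CPM and 214 counts in all, between 0 and 19 per library. Aqp3 still passed the filter on low counts and is included in every count of 9 below. In complete media + IgG the levels of the detected genes spanned more than 2 orders of magnitude per kilobase of coding sequence. Aqp1 (442 CPM per kilobase) and Slc12a2 (420) stood highest, followed by Kcnq1 (161), Slc26a3 (31), Cftr (29.1), Ano1 (15.9), Slc26a6 (13.5) and Slc9a3 (2.37). When the full exon length was used, Slc12a2 (139) came before Aqp1 (136) and Cftr (17) before Slc26a3 (11.1), and the remaining order did not change. The cotransporter that loads the cell with chloride was thus far more abundant as RNA than either apical chloride channel.

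The ratio of the highest to the lowest condition mean was 5.63 for Ano1, 2.37 for Slc9a3, 2.10 for Aqp1 and 1.70 for Slc26a3. It was 1.41 for Cftr, 1.2 for Slc12a2 and 1.19 for each of Kcnq1 and Slc26a6. Ano1 had its 3 highest means in Wnt5a + IgG, Wnt5a + anti-Ptk7 and SCM + IgG, while Aqp1 and Slc26a3 were highest in complete media and lowest in SCM + IgG. The plot of member levels by condition shows these patterns library by library.

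**Figure D1:**
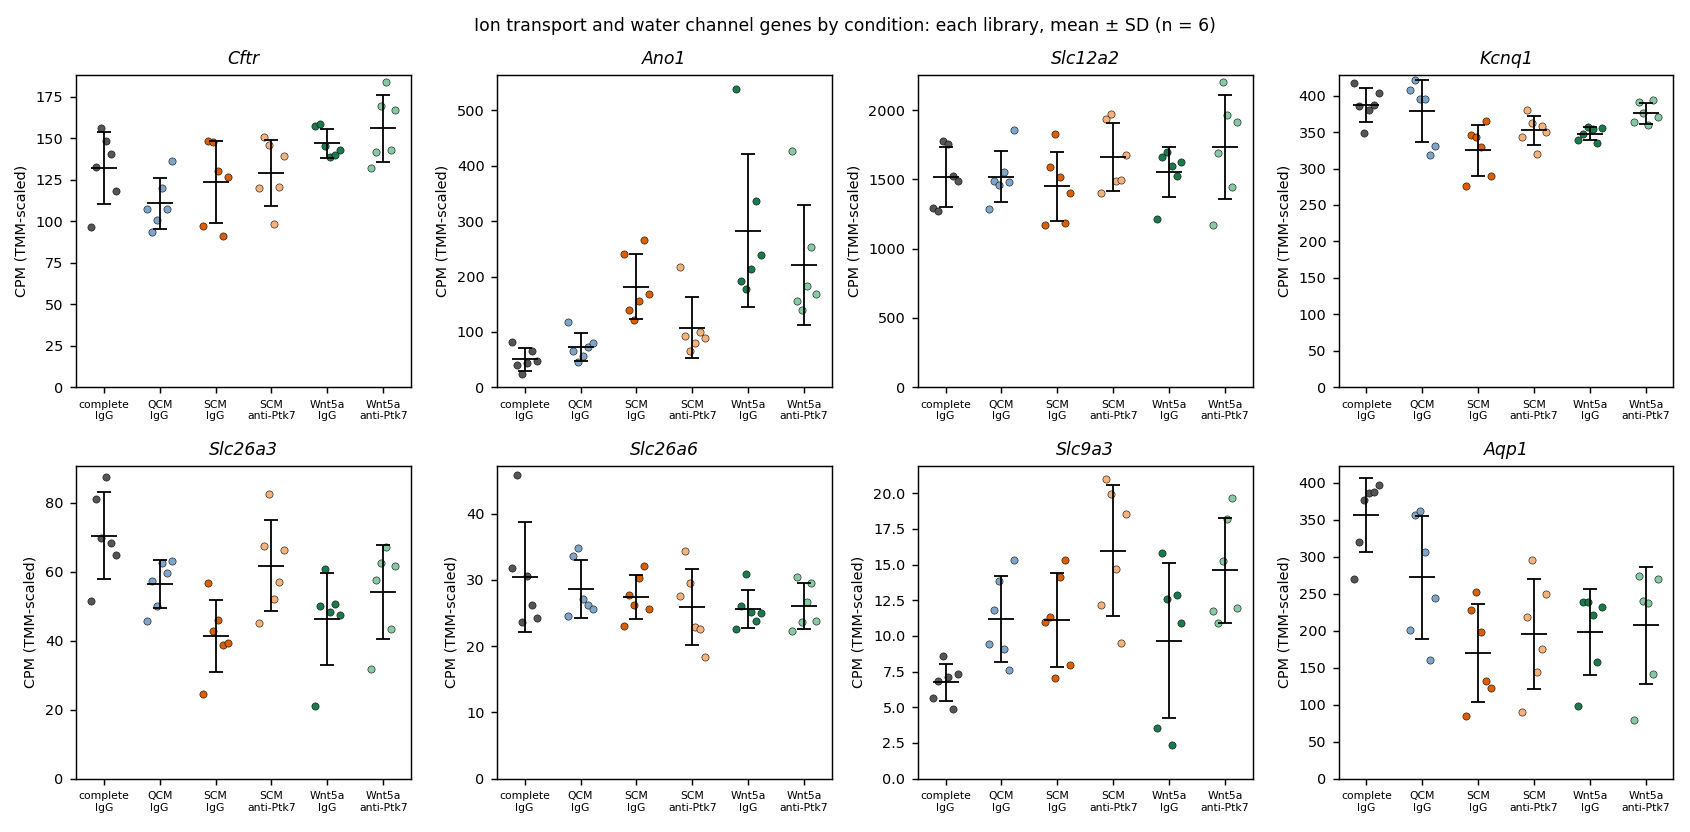
Levels of the 8 detected genes in CPM (TMM-scaled, linear axes from 0) in the 6 conditions. Each point is a library, placed from left to right by replicate number 1 to 6, and the black bar and whiskers are the mean ± SD (n = 6). Ano1 lies between 24.6 and 82.3 CPM in complete media and between 178 and 539 in Wnt5a + IgG, Aqp1 and Slc26a3 are lowest in SCM + IgG, and the condition means of Slc12a2, Kcnq1, Cftr and Slc26a6 differ by at most 1.41 times.

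A gene was called where both the adjusted p was under 0.05 and the fold change over 1.5, by edgeR's quasi-likelihood test and Benjamini-Hochberg adjustment over all 15497 genes tested. By this rule SCM against complete media called 3 of the 9 genes (Ano1 higher, Aqp1 and Slc26a3 lower), where 6.08% of all genes tested were called, 4.96% as higher and 1.12% as lower. Wnt5a against complete media, which shares the complete media libraries, also called 3 of 9, Ano1 as higher and Aqp1 and Slc26a3 as lower, against 10.2% of all genes (8.29% higher, 1.88% lower). SCM against QCM called 1 of 9, Ano1, against 0.903% of all genes. QCM against complete media called 0 of 9 (2 at an unadjusted p under 0.05), and 0 by DESeq2 and by voom with limma as well, with 0.374% of all genes called (0.355% higher, 0.0194% lower). No gene was called between Wnt5a and SCM (2 at an unadjusted p under 0.05, 0.69% of all genes called). Since the 9 were picked with earlier results of these data known, the shares of all genes beside these counts are a description and no test of the set. Over the 9 genes the log2 fold change had a median of −0.15 in SCM, −0.04 in Wnt5a and −0.08 in QCM, each against complete media, and between 0.01 and 0.02 over all genes tested. In Wnt5a this median is the value of Aqp3, and without Aqp3 the medians of the 8 detected genes were −0.12, −0.06 and −0.06. In bulk RNA, fewer cells of a type and less RNA per cell cannot be told apart, which applies to each value given here.

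**Figure D2:**
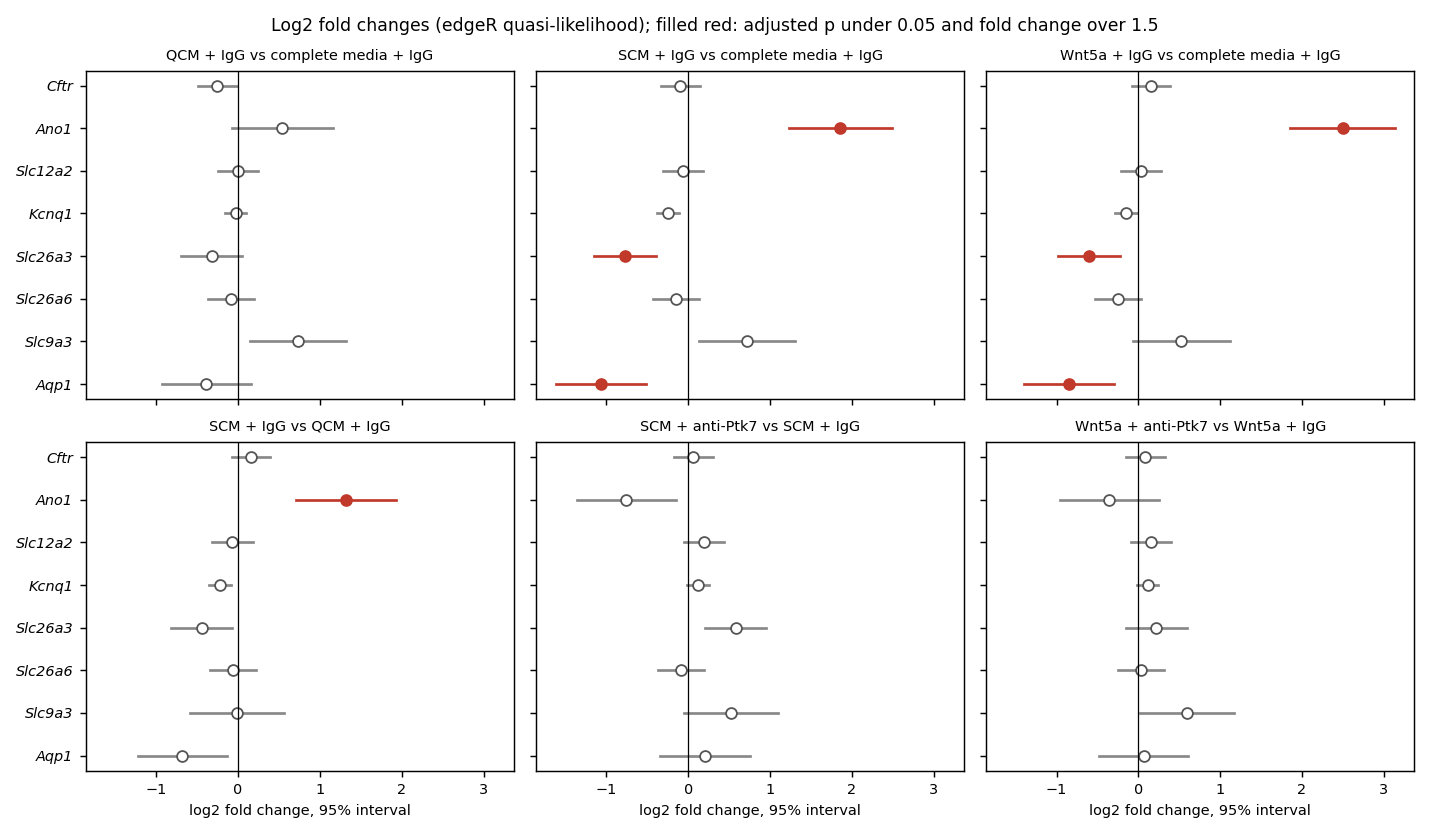
Log2 fold changes of the 8 detected genes in 6 comparisons (edgeR quasi-likelihood, all 36 libraries in 1 model), with 95% intervals (normal approximation) as lines. Filled red points passed both cutoffs (adjusted p under 0.05, fold change over 1.5). Ano1 is the only red point to the right of 0, in SCM, in Wnt5a and in SCM against QCM, and Aqp1 and Slc26a3 are the red points to the left, in SCM and Wnt5a against complete media.

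RefSeq gave upstream sequence for 7 of the 9 genes, with no entry for Slc12a2 and Kcnq1. The stretches before the annotated start are shown for the 3 called genes, and for Cftr as the chloride channel that was not called in any comparison, because their base composition differs widely. They come from GRCm38.p6, run 5′ to 3′ on the strand of the gene, and have CpG dinucleotides in capitals. For Ano1 the 19 bases and for Slc26a3 the 2 bases nearest the start were left out, since another annotated transcript of the gene has an exon there. They lie at chr7:144738593-144738823 (Ano1, minus strand), chr6:55336049-55336298 (Aqp1, plus strand), chr12:31437969-31438216 (Slc26a3, plus strand) and chr6:18170437-18170686 (Cftr, plus strand).
Ano1: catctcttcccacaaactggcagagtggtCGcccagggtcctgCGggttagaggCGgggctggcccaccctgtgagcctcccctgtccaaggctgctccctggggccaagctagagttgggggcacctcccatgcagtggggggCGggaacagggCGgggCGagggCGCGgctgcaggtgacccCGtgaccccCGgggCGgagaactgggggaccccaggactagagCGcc
Aqp1: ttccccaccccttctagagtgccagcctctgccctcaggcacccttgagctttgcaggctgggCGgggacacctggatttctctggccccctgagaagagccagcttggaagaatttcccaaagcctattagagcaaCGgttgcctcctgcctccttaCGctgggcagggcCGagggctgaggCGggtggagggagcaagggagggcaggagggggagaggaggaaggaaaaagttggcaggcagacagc
Slc26a3: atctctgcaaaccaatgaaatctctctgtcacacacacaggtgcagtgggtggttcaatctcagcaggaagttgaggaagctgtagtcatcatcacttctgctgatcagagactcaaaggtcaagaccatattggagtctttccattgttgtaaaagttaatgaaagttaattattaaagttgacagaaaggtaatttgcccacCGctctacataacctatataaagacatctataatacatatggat
Cftr: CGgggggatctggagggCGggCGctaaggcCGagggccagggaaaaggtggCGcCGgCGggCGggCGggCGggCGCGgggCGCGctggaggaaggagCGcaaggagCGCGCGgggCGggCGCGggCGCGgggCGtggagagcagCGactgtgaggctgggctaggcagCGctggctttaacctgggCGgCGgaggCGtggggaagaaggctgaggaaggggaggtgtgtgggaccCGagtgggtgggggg
The 250 bases before the start held 72.0% G and C with 16 CpG dinucleotides for Ano1, 62.0% with 5 for Aqp1, 38.8% with 1 for Slc26a3 and 76.4% with 30 for Cftr, where the medians of all 32851 RefSeq windows were 52.4% and 6. Slc26a3 was thus under both medians, while Aqp1 was just under that of CpG dinucleotides (5 against 6) and over that of G and C. The windows of Ano1 and Slc26a3 lie inside the gene bounds given below, so they precede a start within the locus and not the outermost one. Counts per gene do not tell which annotated start was used in these cells. The windows of the 7 genes were searched on both strands for 5 short motifs. The TEAD motif GGAATG stands in 12.6% of all windows. The AP-1 motif TGACTCA stands in 4.46% (6.75% with any base in the middle), the cyclic AMP response element TGACGTCA in 1.55% and the HNF4 motif CAAAGTCC in 1.2%. The motif of Gata4 and Gata6, AGATAA, stands in 9.99%. None of the 7 windows held a match to any of the 5, the wider AP-1 form included, which says only that these letters are not in these windows.

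Ano1 encodes the calcium-activated chloride channel anoctamin 1 and lies on chromosome 7 at 144588549-144751974, on the minus strand of GRCm38. Its level ran from 24.6 to 82.3 CPM with a median of 45.3 in complete media, and from 46.1 to 118 with a median of 68.9 in QCM. In SCM + IgG it ran from 121 to 267 with a median of 161, and in Wnt5a + IgG from 178 to 539 with a median of 226. Every library of SCM + IgG and of Wnt5a + IgG was above every library of complete media and of QCM.

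Against complete media (mean 50.2 ± 20.3 CPM, SD, n = 6), Ano1 was 3.62-fold higher in SCM (182 ± 58.4 CPM), a log2 fold change of 1.86 (SE 0.32, edgeR adjusted p = 0.00014). It was 5.64-fold higher in Wnt5a (283 ± 138 CPM), a log2 fold change of 2.49 (SE 0.33, edgeR adjusted p = 1.05e-06). No other detected gene of the 9 had a change of this size in any comparison. Both calls held when any single library was left out, with log2 fold changes between 1.70 and 2.06 in SCM and between 2.21 and 2.71 in Wnt5a. In QCM the level was 72.9 ± 25.1 CPM, and the log2 fold change of 0.54 (95% interval −0.08 to 1.15) was not called (edgeR adjusted p = 0.51). SCM was 2.49-fold above QCM (log2 fold change 1.32, SE 0.31, edgeR adjusted p = 0.025). The SCM against QCM call was lost without QCM replicate 2 (edgeR adjusted p = 0.076), 3 (0.096) or 4 (0.077) or SCM replicate 1 (0.081) or 5 (0.057), while the log2 fold change stayed between 1.18 and 1.51. The Wnt5a mean was above the SCM mean, but this difference was not called (log2 fold change 0.64, SE 0.31, edgeR adjusted p = 0.25).

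Ano1 also marks interstitial cells of Cajal in the gut wall, which an epithelial organoid should lack. Their markers Kit and Etv1, which some epithelial cells express too, summed to 16.8 to 33 CPM in complete media, 5.01 to 32.8 in SCM + IgG and 16 to 28.2 in Wnt5a + IgG, most of it Kit. Etv1 alone had means of 0.694 CPM in complete media, 0.937 in SCM + IgG and 0.989 in Wnt5a + IgG. Neither gene was called in either medium, and the part of such cells in the change of Ano1 was not tested. Over the 36 libraries the 3 genes most like Ano1 in log2 CPM included Slc4a11, a transporter of the bicarbonate transporter family (Pearson r = 0.976). This correlation pools the 6 conditions, and both genes were measured in the same libraries.

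With anti-Ptk7, Ano1 was 107 ± 55.4 CPM in SCM (lowest 65.4, median 90.6, highest 218) and 221 ± 108 CPM in Wnt5a (lowest 140, median 176, highest 427). In SCM, 5 of the 6 anti-Ptk7 libraries lay under the lowest IgG library, and replicate 1 lay inside the IgG range. The log2 fold change of anti-Ptk7 against IgG was −0.76 in SCM (SE 0.31, edgeR adjusted p = 0.19) and −0.35 in Wnt5a (SE 0.31, edgeR adjusted p = 0.66), and neither was called in the model without a replicate block. Without replicate 1 of SCM + anti-Ptk7 the change in SCM was called, at −1.09 (edgeR adjusted p = 0.042). With a block on the replicate number, which no label ties to a mouse, the change in SCM was called (−0.82, edgeR adjusted p = 6.51e-06). The change in Wnt5a was not called with the block. Matched by number, Ano1 was lower with anti-Ptk7 than with IgG in 6 of 6 numbers in each medium. The next value is again from the model without the block. The difference of the antibody effect between Wnt5a and SCM was 0.40 on the log2 scale (SE 0.43, edgeR adjusted p = 0.999).

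Cftr, on chromosome 6 at 18170687-18322768 of the plus strand, did not follow Ano1. Its levels ran from 96.6 to 156 CPM with a median of 137 in complete media, 93.3 to 136 with a median of 107 in QCM, 90.9 to 148 with a median of 129 in SCM + IgG, and 139 to 158 with a median of 144 in Wnt5a + IgG. The range of each medium overlapped that of complete media, while those of QCM and Wnt5a + IgG did not overlap. The means were 132 ± 21.7, 111 ± 15.4, 124 ± 24.6 and 147 ± 8.71 CPM (SD, n = 6), and no comparison called it. The log2 fold change against complete media was −0.10 in SCM (95% interval −0.33 to 0.14, edgeR adjusted p = 0.68) and 0.15 in Wnt5a (−0.08 to 0.39, edgeR adjusted p = 0.401). Both intervals lie under the fold changes of Ano1. With anti-Ptk7 the mean was 129 ± 19.8 CPM in SCM and 156 ± 20.2 CPM in Wnt5a. Of the antisense gene Gm15592, which overlaps exons of Cftr, 1193 counts were recorded over all libraries, against 65370 of Cftr. The cDNA kit does not mark strand, so reads in the overlap cannot be told apart.

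Set side by side per kilobase of coding sequence, the relative levels of both chloride channels changed places between media. In complete media Ano1 was at 15.9 ± 6.45 and Cftr at 29.1 ± 4.78 CPM per kilobase, and Ano1 was the higher in 1 of 6 libraries. In QCM Ano1 was the higher in 2 of 6 (1 of 6 by exon length). In SCM + IgG the levels were 57.6 and 27.2, in Wnt5a + IgG 89.7 and 32.4, and Ano1 was the higher in 6 of 6 libraries of each. With anti-Ptk7 the count was 3 of 6 in SCM and 6 of 6 in Wnt5a, and the median ratio of Ano1 to Cftr was 1.04 and 1.52, against 1.81 and 2.31 with IgG and 0.501 in complete media. These are RNA levels per length and say nothing of channel activity.

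**Figure D3:**
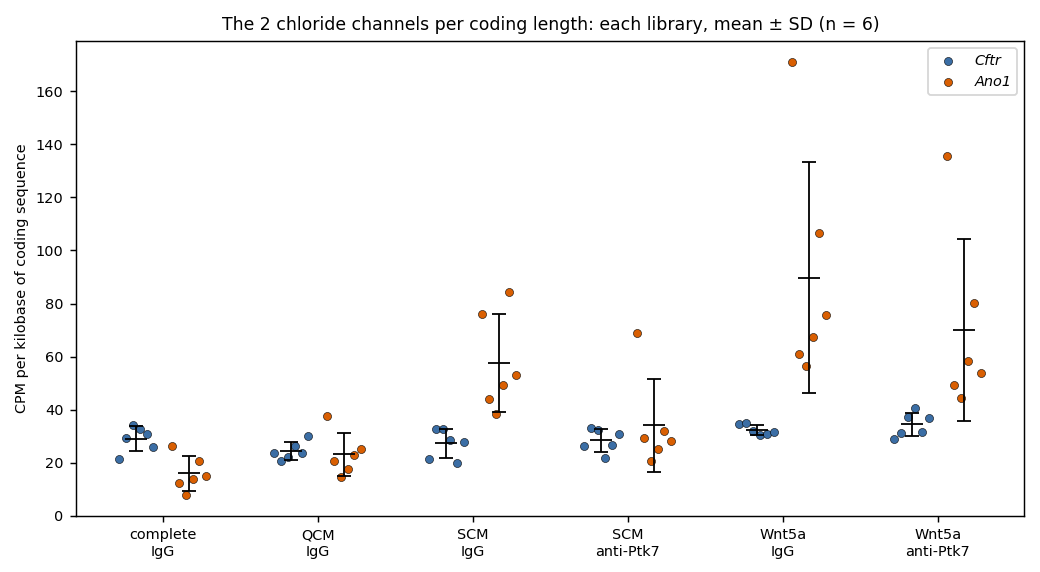
Ano1 (orange) and Cftr (blue) in CPM per kilobase of coding sequence, by condition, with each library as a point and the mean ± SD as black bars (n = 6). Cftr stays between 20.02 and 40.46 in all libraries, while the mean of Ano1 goes from 15.9 in complete media to 57.6 in SCM + IgG and 89.7 in Wnt5a + IgG.

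Slc12a2, the basolateral cotransporter that supplies chloride for secretion, was the most abundant of the genes in CPM in every condition. It ran from 1273 to 1780 CPM with a median of 1506 in complete media, from 1174 to 1827 with a median of 1459 in SCM + IgG, and from 1211 to 1701 with a median of 1610 in Wnt5a + IgG. These ranges overlapped over most of their width. No comparison called it, and the log2 fold change was −0.07 in SCM (95% interval −0.31 to 0.18) and 0.03 in Wnt5a (−0.22 to 0.28) against complete media. With anti-Ptk7 the means were 1661 ± 243 CPM in SCM and 1733 ± 376 CPM in Wnt5a, which were the highest of the 6 conditions but not called against IgG (edgeR adjusted p = 0.45 and 0.62).

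Kcnq1, the potassium channel that keeps the driving force for chloride, ran from 349 to 418 CPM with a median of 386 in complete media and from 276 to 366 with a median of 337 in SCM + IgG. The SCM libraries were mostly lower, 5 of 6 lying under the lowest complete media library. The log2 fold change of −0.25 (SE 0.07) had an edgeR adjusted p of 0.012 but a fold change under 1.5, so it was not called by the rule used. In Wnt5a it was −0.15 (SE 0.07, edgeR adjusted p = 0.102). With anti-Ptk7 in Wnt5a, Kcnq1 ran from 359 to 394 CPM and with IgG from 336 to 356, so that these libraries did not overlap, but the difference was small (log2 fold change 0.11, SE 0.07) and not called (edgeR adjusted p = 0.47). Kcnq1ot1, an antisense RNA within the Kcnq1 locus, held 15533 counts against 175455 of Kcnq1, and reads where their exons overlap cannot be told apart without strand.

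Slc26a3, the apical chloride and bicarbonate exchanger Dra, lies on chromosome 12 at 31390871-31473917 of the plus strand. It ran from 51.5 to 87.3 CPM with a median of 68.9 in complete media and from 45.7 to 62.98 with a median of 58.4 in QCM. In SCM + IgG it ran from 24.6 to 56.7 with a median of 41.0, and in Wnt5a + IgG from 21.01 to 60.9 with a median of 49.2. In each of SCM + IgG and Wnt5a + IgG, 5 of 6 libraries were under the lowest complete media library, and 1 overlapped.

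Slc26a3 fell from a mean of 70.4 ± 12.6 CPM in complete media to 41.3 ± 10.5 CPM in SCM, a log2 fold change of −0.77 (SE 0.19, edgeR adjusted p = 0.0068). In Wnt5a it fell to 46.4 ± 13.3 CPM, a log2 fold change of −0.60 (SE 0.19, edgeR adjusted p = 0.021). The call in SCM held without any single library. The call in Wnt5a was lost without replicate 1 of Wnt5a + IgG (−0.46, edgeR adjusted p = 0.068), without complete media replicate 4 (−0.54, 0.0503) and, by the fold cutoff, without complete media replicate 2 (−0.57, 0.042). Neither QCM against complete media (−0.32, SE 0.19, edgeR adjusted p = 0.52) nor SCM against QCM (−0.45, SE 0.19, edgeR adjusted p = 0.22) was called.

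With anti-Ptk7, Slc26a3 ran from 45.0 to 82.5 CPM with a median of 61.6 in SCM and from 31.9 to 67.3 with a median of 59.6 in Wnt5a. Of the SCM libraries with anti-Ptk7, 4 of 6 were above the highest IgG library, and all 6 were above the IgG median. The log2 fold change of 0.58 in SCM (SE 0.19) was not called in the model without a replicate block (edgeR adjusted p = 0.099). In Wnt5a it was 0.22 (SE 0.19, edgeR adjusted p = 0.66). With the replicate block the change in SCM was called (0.60, edgeR adjusted p = 0.0023). The SCM + IgG libraries also enter the comparison with complete media, so the directions of both comparisons are not independent.

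Slc26a3 is a gene of mature surface enterocytes. Of the other enterocyte genes taken as markers, 4 of 6 enterocyte markers were higher in SCM than in complete media by the same test (Alpi, Fabp1, Apoa1 and Apoa4) and 1, Anpep, was lower. In Wnt5a 3 of 6 were higher (Alpi, Fabp1 and Apoa4) and Anpep was lower, and in QCM, where Slc26a3 was not called, the same 3 were higher and 0 lower. The summed level of the 6 markers was 1060 to 1680 CPM in complete media, 1470 to 1920 in QCM, 1620 to 2250 in SCM + IgG and 1030 to 1870 in Wnt5a + IgG. Markers of other epithelial cells moved in the same comparisons. Of 4 tuft cell markers 3 were called higher in Wnt5a (Avil, Trpm5 and Dclk1) and 0 in SCM (1 at an unadjusted p under 0.05), and their sum was 6.93 to 12.1 CPM in complete media, 8.92 to 15 in SCM + IgG and 19.5 to 36.1 in Wnt5a + IgG. Of 4 Paneth cell markers 2, Mmp7 and Ang4, were called higher in each medium, while the sum of the 4 was 1380 to 1620, 1490 to 2090 and 836 to 1690 CPM. Of 4 enteroendocrine markers 1, Neurog3, was called lower in each, and of 5 goblet cell markers 0 (0 in SCM and 1 in Wnt5a at an unadjusted p under 0.05). The part of cell composition in the changes of Ano1, Aqp1 and Slc26a3 was not tested. The genes most like Slc26a3 over the 36 libraries were the water channel Aqp4 (r = 0.902), 9130208D14Rik (0.896) and Pigr, the receptor that carries immunoglobulins across the epithelium (0.89).

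Slc26a6, the other apical anion exchanger, was not called in any comparison. It ran from 23.6 to 45.9 CPM with a median of 28.5 in complete media, from 22.99 to 32.1 with a median of 26.9 in SCM + IgG, and from 22.6 to 30.9 with a median of 25.1 in Wnt5a + IgG. All ranges overlapped, and the condition means lay between 25.6 and 30.4 CPM. The log2 fold change was −0.15 in SCM (95% interval −0.43 to 0.13) and −0.25 in Wnt5a (−0.53 to 0.03) against complete media.

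Slc9a3, the sodium and proton exchanger of salt absorption, was the lowest of the detected genes. It ran from 4.91 to 8.59 CPM with a median of 6.98 in complete media, from 7.61 to 15.3 with a median of 10.6 in QCM, from 7.05 to 15.4 with a median of 11.1 in SCM + IgG, and from 2.35 to 15.8 with a median of 11.7 in Wnt5a + IgG. Most libraries of the other media were above complete media, with 5 of 6 in QCM and 4 of 6 in SCM above its highest library, while 2 of 6 in Wnt5a were below its lowest. None of the comparisons called it. The log2 fold change was 0.73 in QCM (SE 0.30, edgeR adjusted p = 0.29), 0.72 in SCM (SE 0.30, edgeR adjusted p = 0.12) and 0.53 in Wnt5a (SE 0.30, edgeR adjusted p = 0.23). It was called in SCM when only the 2 groups compared entered the fit (0.73, edgeR adjusted p = 0.032), and in Wnt5a without replicate 4 of Wnt5a + IgG (0.72, edgeR adjusted p = 0.048). The highest means were those with anti-Ptk7, 15.97 ± 4.603 CPM in SCM and 14.6 ± 3.67 CPM in Wnt5a. Against IgG the log2 fold changes were 0.52 and 0.59 (SE 0.29 each, edgeR adjusted p = 0.37 and 0.34).

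Aqp1, a water channel, lies on chromosome 6 at 55336432-55348555 of the plus strand. Its level ran from 271 to 398 CPM with a median of 381 in complete media and from 160 to 362 with a median of 276 in QCM. In SCM + IgG it ran from 85.0 to 252 with a median of 165, and in Wnt5a + IgG from 97.5 to 239 with a median of 227. All libraries of SCM + IgG and Wnt5a + IgG were under the lowest of complete media, and QCM overlapped with each of them.

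From a mean of 356 ± 50.4 CPM in complete media, Aqp1 fell to 170 ± 66.2 CPM in SCM, a log2 fold change of −1.07 (SE 0.28, edgeR adjusted p = 0.01). In Wnt5a it fell to 198 ± 58.0 CPM, a log2 fold change of −0.85 (SE 0.28, edgeR adjusted p = 0.026). The SCM call held without any single library, and the Wnt5a call was lost without Wnt5a + IgG replicate 1 (−0.71, edgeR adjusted p = 0.081) or replicate 5 (−0.79, edgeR adjusted p = 0.062). QCM lay between, at 272 ± 83.5 CPM (log2 fold change −0.39 against complete media, SE 0.28, edgeR adjusted p = 0.62). SCM against QCM gave −0.68 (SE 0.28, edgeR adjusted p = 0.196) and was not called. With the replicate block it was called (−0.72, edgeR adjusted p = 0.0045). With anti-Ptk7 Aqp1 was at 196 ± 74.4 CPM in SCM and 207 ± 79.2 CPM in Wnt5a (log2 fold changes 0.21 and 0.07, 95% intervals −0.34 to 0.75 and −0.48 to 0.61). Neither change was called.

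In intestine Aqp1 is best known from the endothelium. Of the 4 endothelial markers, Kdr and Emcn were at 0 in every library, Cdh5 was above 0 in 1 library of SCM + anti-Ptk7, and Pecam1 was counted in some libraries of every condition. The summed level of the 4 was 0 to 1.18 CPM in complete media (median 0.397), 0 to 0.661 in QCM (median 0.214) and 0 to 0.392 in SCM + IgG (median 0). In Wnt5a + IgG it was 0 to 0.351 (median 0.0964). With anti-Ptk7 it was 0 to 0.4 in SCM (median 0.126) and 0 to 0.859 in Wnt5a (median 0.247). The part of endothelial cells in the level of Aqp1 was not tested. Over the 36 libraries the genes most like it were Smoc2, a secreted protein listed among the crypt stem cell markers (r = 0.946), Dhcr7, the last enzyme of cholesterol synthesis (0.931), and Add3, a protein of the membrane skeleton (0.899). Smoc2 also fell in SCM (log2 fold change −0.77, SE 0.17, edgeR adjusted p = 0.0021) and Wnt5a (−0.67, SE 0.17, edgeR adjusted p = 0.0037), the latter missing the fold cutoff without Wnt5a + IgG replicate 1 (−0.56). Of the 4 stem cell markers Smoc2 alone was called in these comparisons, and the markers did not move one way. Mean levels in complete media, SCM + IgG and Wnt5a + IgG were 205, 141 and 170 CPM for Lgr5, 469.9, 638 and 610 for Olfm4, and 27.6, 39.2 and 36.6 for Ascl2, whose log2 fold changes of 0.51 in SCM and 0.41 in Wnt5a had edgeR adjusted p of 0.0099 and 0.023 but a fold change under 1.5. The median log2 fold change of the 4 was −0.05 in SCM and 0.05 in Wnt5a. The summed level of the 4, to which Smoc2 added more than any other, was 1590 to 2210 CPM in complete media, 1030 to 1870 in SCM + IgG and 901 to 2000 in Wnt5a + IgG, and its part in the change of Aqp1 was not tested.

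**Figure D4:**
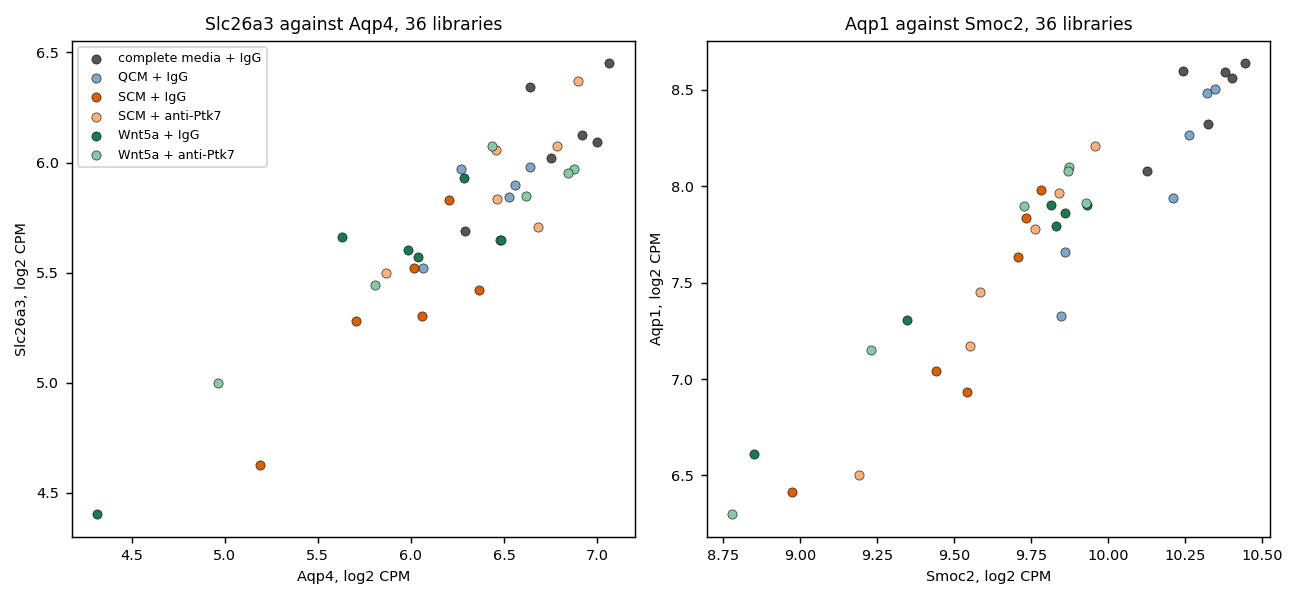
Slc26a3 against Aqp4 (left) and Aqp1 against Smoc2 (right) in log2 CPM (TMM, prior count 2), each point 1 of 36 libraries, coloured by condition. Both pairs rise together (Pearson r = 0.902 and 0.946), with complete media libraries at the upper right and SCM + IgG and Wnt5a + IgG libraries reaching the lower left.

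Among themselves, Slc26a3 and Aqp1 were the members most alike over the 36 libraries (r = 0.785), and each ran against Ano1 (r = −0.731 and −0.757). Cftr and Slc12a2 went together (r = 0.663), and Cftr was close to unrelated to Kcnq1 (r = −0.032). These values pool conditions and replicates and are given as a description. Replicate 1 had the lowest Slc26a3 of its condition in 6 of 6 conditions, the lowest Aqp1 in 5 of 6, the lowest Slc12a2 in 5 of 6 and the highest Ano1 in 5 of 6, and replicate 3 had the lowest Ano1 in 6 of 6. The order of the conditions rests on gaps that were mostly within the spread. Of the 40 steps between neighbouring conditions in the 8 orders, 3 exceeded the larger SD of the 2 conditions on the log2 scale, and these were Ano1 from SCM + IgG to SCM + anti-Ptk7 (0.82 against 0.60), Kcnq1 from Wnt5a + anti-Ptk7 to SCM + anti-Ptk7 (0.093 against 0.084) and Slc9a3 from Wnt5a + anti-Ptk7 to QCM (0.385 against 0.384).

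In the model without a replicate block, anti-Ptk7 against IgG called 0 of the 9 genes in SCM (2 at an unadjusted p under 0.05, Ano1 and Slc26a3) and 0 of 9 in Wnt5a (0 at an unadjusted p under 0.05), where 1.23% and 0.884% of all genes tested were called. DESeq2 and voom with limma called 0 in each as well. The difference of the antibody effects between Wnt5a and SCM was called for 0 of the 9 genes and for 0% of all genes (0 of the 9 at an unadjusted p under 0.05). With the replicate block, anti-Ptk7 in SCM called 2 of the 9, Ano1 and Slc26a3, where 399 of all genes were called (190 without it).

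The remaining transport machinery was read from 7 lists of 63 genes, of which 52 passed the filter on low counts. In SCM against complete media 5 of the 52 rose and 3 fell, and in Wnt5a 6 rose and 1 fell, beside the shares of all genes given above. The median log2 fold change of the 52 was 0.03 in SCM and 0.06 in Wnt5a, against 0.01 over all genes in each. None of the 52 was called in QCM against complete media (9 at an unadjusted p under 0.05), in SCM against QCM (10) or in Wnt5a against SCM (9), by edgeR. DESeq2 called 1 in the last of these.

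The list of potassium channels and the sodium pump had 9 tested genes. Fxyd3, a regulator of the sodium pump, rose from 31.5 CPM in complete media to 58.5 in SCM (log2 fold change 0.89, SE 0.17, edgeR adjusted p = 0.00037) and 62.9 in Wnt5a (1.00, SE 0.17, edgeR adjusted p = 4.42e-05). It fell with anti-Ptk7 in both media, to 34.5 CPM in SCM (−0.76, SE 0.16, edgeR adjusted p = 0.0081) and 41.2 in Wnt5a (−0.61, SE 0.16, edgeR adjusted p = 0.034). The call with anti-Ptk7 in SCM was lost when only the 2 groups compared entered the fit (edgeR adjusted p = 0.056). The call in Wnt5a held in 4 of the 12 fits that left out a library, and was lost without replicate 1, 4, 5 or 6 of Wnt5a + IgG or replicate 2, 3, 4 or 6 of Wnt5a + anti-Ptk7, with log2 fold changes from −0.68 to −0.53 over the 12. Kcnn4, the calcium-activated potassium channel that serves calcium-driven secretion, rose in Wnt5a from 102 to 161 CPM (0.66, SE 0.10, edgeR adjusted p = 1.08e-05).

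Of 8 tested genes of sodium absorption, Slc9a2, the exchanger Nhe2, rose from 53.3 CPM to 97.8 in SCM (0.88, SE 0.22, edgeR adjusted p = 0.0069) and 109 in Wnt5a (1.03, SE 0.22, edgeR adjusted p = 0.00084). Of 5 tested carbonic anhydrases, which supply bicarbonate and protons to the exchangers, Car2 rose in both media (1.26 and 1.23, edgeR adjusted p = 0.0154 and 0.00999) at means under 5 CPM, with the SCM call lost by voom with limma (adjusted p = 0.054) and without complete media replicate 3 (edgeR adjusted p = 0.052), and Car13 in SCM (0.76, edgeR adjusted p = 0.000403). Among chloride and bicarbonate channels and exchangers, 0 of 8 tested genes were called in SCM or Wnt5a against complete media (2 in each at an unadjusted p under 0.05). Ano9, an anoctamin like Ano1, rose with anti-Ptk7 in Wnt5a from 86.1 to 130 CPM (0.60, SE 0.12, edgeR adjusted p = 0.0055). This call was lost with only the 2 groups compared (edgeR adjusted p = 0.073) and, by the fold cutoff, without replicate 1 or 6 of Wnt5a + IgG or replicate 2, 3 or 5 of Wnt5a + anti-Ptk7 (lowest log2 fold change 0.50).

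Of 4 further aquaporins tested, Aqp4 fell from 111 CPM to 62.6 in SCM (−0.83, SE 0.26, edgeR adjusted p = 0.0301) and 60.8 in Wnt5a (−0.87, SE 0.26, edgeR adjusted p = 0.013), in the same direction as Aqp1. The SCM call of Aqp4 was lost without replicate 1 or 5 of SCM + IgG or replicate 3, 4 or 5 of complete media, the log2 fold change staying between −0.93 and −0.73. Aqp9 was called higher in Wnt5a at a mean of 0.962 CPM against 0.0493 CPM, which rests on few counts. Of 12 tested genes that set cyclic nucleotides and calcium in secretion, Gucy2c, the receptor of guanylin and of a bacterial enterotoxin, fell in SCM from 390 to 258 CPM (−0.59, SE 0.12, edgeR adjusted p = 0.00104), just past the fold cutoff, which it missed without SCM + IgG replicate 1 or complete media replicate 2 or 5. Ptger4, a prostaglandin E2 receptor that raises cyclic AMP, rose in SCM (1.03, SE 0.20, edgeR adjusted p = 0.00062) and in Wnt5a (1.00, SE 0.20, edgeR adjusted p = 0.0004). Of 6 tested kinases and other regulators of transporters, the kinase Wnk4, which acts on chloride cotransporters, fell in SCM (−0.66, SE 0.22, edgeR adjusted p = 0.047), a call that held in 4 of the 12 fits that left out a library, being lost without replicate 1, 4 or 6 of SCM + IgG or replicate 2, 3, 4, 5 or 6 of complete media. It was also lost with no filter (edgeR adjusted p = 0.064) and with only the groups compared (0.057).

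**Figure D5:**
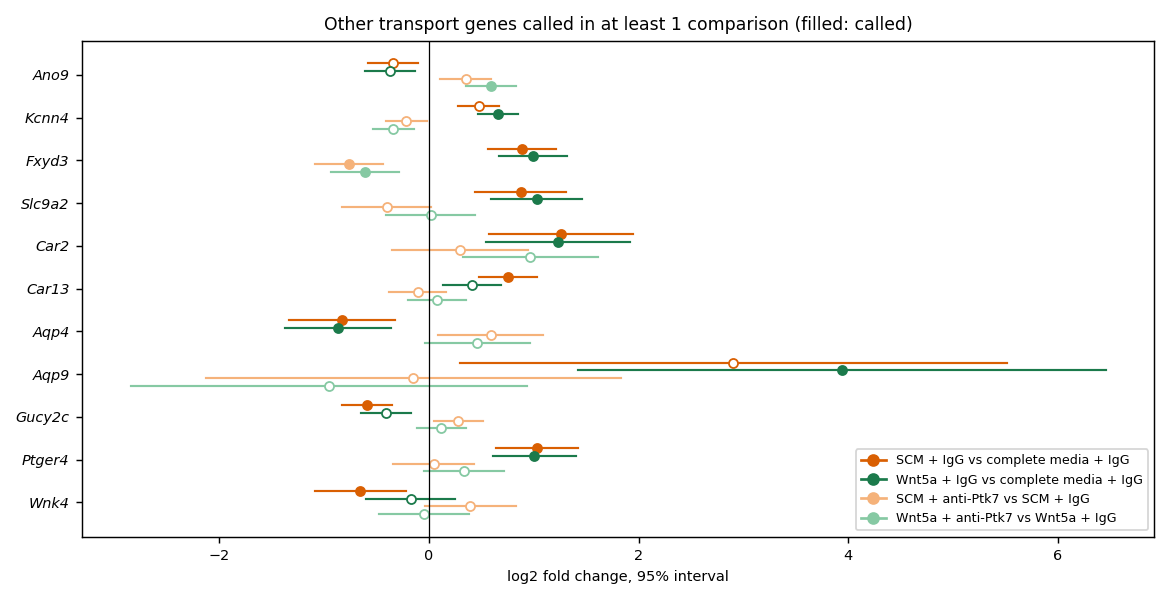
Log2 fold changes with 95% intervals of the 11 other transport genes called in at least 1 comparison, in 4 comparisons (colours), with filled points for calls (adjusted p under 0.05, fold change over 1.5). Fxyd3 is filled on the right in SCM and Wnt5a against complete media and on the left with anti-Ptk7, and Aqp4 is filled on the left in SCM and Wnt5a.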

How the data were processed

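RNA of jejunal organoids was reverse transcribed and amplified with a Smart-Seq V4 kit and sequenced in 36 libraries. The authors filtered the reads and aligned them to the mouse genome with GSNAP (mm10 per the labels) and deposited raw counts per gene without normalization. The annotation used for counting is not given in the sources used here. Groups and replicate numbers come from the sample titles, and 0 columns of unknown samples were present. Symbols, positions and lengths are from GENCODE (GRCm38) and upstream sequences from RefSeq (GRCm38.p6).

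With R 4.3.3, edgeR 4.0.16 kept 15497 genes by filterByExpr, scaled libraries by TMM and applied the quasi-likelihood test in 1 model of 6 condition means, with Benjamini-Hochberg adjustment over all genes and the cutoffs of the study (adjusted p under 0.05, fold change over 1.5). Levels per gene are TMM-scaled CPM, and correlations are of log2 CPM (prior count 2). Alternatives were DESeq2 1.42.0, voom with limma 3.58.1 on quantile-normalized values (the study's method), the replicate block, scaling by upper quartiles or by library size alone, omission of the filter or of the fold cutoff, fits of only the groups compared, and each library left out in turn. Their use on single genes that are no members was added after seeing the data. Code was tested on simulated counts. At these depths detected genes held between 37 and 35251 counts per library, so precision was set by the spread between replicates, and Aqp3 by counting.

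The members and lists were chosen with earlier results of these data known. Named were all 9 members, other transport genes called in at least 1 comparison, and for each detected member the 3 most correlated genes, with markers where they bear on a member. Some of the genes most correlated with Ano1 are not reported here. The study's design gives 6 mice and the titles give replicates 1 to 6 in each condition, but no label states that a replicate number is a mouse, so the main values come from the model without a block and the block is an alternative. Where nothing ties libraries to separate mice, p-values measure the spread between these libraries.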

Additional observations from a re-analysis of the deposited data

Results flagged for a closer look

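A gap test (Dixon's, at its 95% critical value for 6 samples) was applied to the log2 CPM of each detected gene in each condition. Of the 48 groups 3 stood out, where chance flags about 5% of groups. Below, levels are in CPM, and each gap is a share of the range on the log2 scale. In Wnt5a + IgG, replicate 1 had the lowest Slc12a2, at 1210 CPM against 1520 in the next library, a gap of 0.672 of the range. The same library had the lowest Slc26a3, at 21.01 CPM against 47.5, a gap of 0.765 of the range. In SCM + anti-Ptk7, replicate 1 had the highest Ano1, at 218 CPM against 101, a gap of 0.642 of the range. The values of Slc26a3 and Ano1 without these libraries are given beside their results, and Slc12a2 was called neither with nor without the library.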

How the results depend on the processing

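The 3 calls in SCM and the 3 in Wnt5a against complete media held under DESeq2, voom with limma, the replicate block, scaling by upper quartiles or library size, and without the filter. For single genes, 498 values from settings that kept all libraries retained their direction and side of the threshold, 5 became calls and 9 changed sign. The sign changes were of small values that were never called. For Slc12a2 in QCM (0.000849) they were −0.011 by DESeq2, −0.023 by voom, −0.00709 by upper-quartile scaling, −0.023 by library size, −0.0075 without a filter and −0.015 with only the groups compared, for Slc12a2 in Wnt5a (0.031) −0.087 by voom and −0.010 by library size, and for Slc9a3 in SCM against QCM (−0.012) 0.027 with the replicate block. The replicate numbers were not taken as pairs, since no label ties them to mice and the correlation of deviations from the condition means exceeded 0.1 in 34 of 90 same-number pairs (average 0.092, and −0.018 for different numbers). This choice was settled with the results of the replicate block known. The block called 2 of the 9 genes in SCM against QCM (main 1, with Aqp1 added at −0.72, edgeR adjusted p = 0.0045) and 2 for anti-Ptk7 in SCM (main 0), which were Ano1 (−0.82, edgeR adjusted p = 6.51e-06) and Slc26a3 (0.60, edgeR adjusted p = 0.0023). It changed no other call of a detected member. Of all genes it called 399 for anti-Ptk7 in SCM (190 without it) and 496 in SCM against QCM (140). Of the 36 libraries, 16 correlated best with their own number among the 6, averaged over the other conditions. That is more than an even spread over the 6 numbers would give.

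Of the other transport genes, Wnt5a against SCM gave 1 by DESeq2, upper-quartile scaling and the replicate block (main 0), anti-Ptk7 in SCM gave 2 with the block, 2 with no fold cutoff and 0 with only the groups compared (main 1), SCM against QCM gave 1 with only the groups compared (main 0), and Wnt5a against complete media gave 13 with no fold cutoff (main 7). The cause of these differences was not tested.

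With each library left out in turn, the members called ranged from 0 to 1 in SCM against QCM and for anti-Ptk7 in SCM, and from 1 to 4 in Wnt5a against complete media, with 1 without Wnt5a + IgG replicate 1. Of the other transport genes, 5 to 9 were called in SCM (5 without SCM + IgG replicate 1 or complete media replicate 3), 1 to 2 for anti-Ptk7 in SCM (2 without SCM + IgG replicate 3), 0 to 2 for anti-Ptk7 in Wnt5a (0 without Wnt5a + IgG replicate 1 or 6 or Wnt5a + anti-Ptk7 replicate 2 or 3) and 0 to 1 in Wnt5a against SCM (1 without Wnt5a + IgG replicate 2). Leaving out a library changed the sign of 15 results that were never called. The range of Aqp1 was −0.079 to 0.23 (anti-Ptk7 in Wnt5a) and −0.29 to 0.023 (the difference of the antibody effects). That of Cftr was −0.0055 to 0.13 (anti-Ptk7 in SCM) and −0.043 to 0.093 (the difference of the antibody effects). That of Kcnq1 was −0.046 to 0.033 (the difference of the antibody effects). That of Slc12a2 was −0.084 to 0.045 (QCM), −0.15 to 0.018 (SCM against QCM), −0.030 to 0.090 (Wnt5a) and −0.11 to 0.047 (the difference of the antibody effects). That of Slc26a6 was −0.16 to 0.054 (QCM), −0.11 to 0.0037 (SCM against QCM) and −0.019 to 0.080 (anti-Ptk7 in Wnt5a). That of Slc9a3 was −0.12 to 0.13 (SCM against QCM), −0.40 to 0.011 (Wnt5a against SCM) and −0.14 to 0.27 (the difference of the antibody effects).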

Other observations

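The genes most like the remaining members over the 36 libraries were the following, as Pearson r of log2 CPM over pooled conditions. Cftr was most like Nufip2 (0.806), Pbrm1 (0.803) and Zfp260 (0.803), and Slc12a2 most like the cell cycle kinase Wee1 (0.816), Dpyd (0.81) and Cpq (0.788). Kcnq1 was most like Gm12977 (0.806), the kinase Rps6ka1 (0.795) and Gm44878 (0.777). Slc26a6, whose levels differed least between conditions, reached only 0.664 (Rpa1), 0.648 (Tm9sf1) and 0.63 (Mau2), and Slc9a3 0.693 (Gm4890), 0.689 (Tmem238l) and 0.687 (Timp3). The spread between replicates also differed by gene. The coefficient of variation within a condition was between 2.58% and 11.2% for Kcnq1 and between 32.1% and 51.6% for Ano1, the member with the largest changes. It was between 19.3% and 56.3% for Slc9a3, the member with the fewest counts among those detected. Aqp3, listed here without a comparison, had a mean of 0.674 CPM in complete media, 0.23 in QCM, 0.555 in SCM + IgG, 0.283 in SCM + anti-Ptk7, 0.666 in Wnt5a + IgG and 0.299 in Wnt5a + anti-Ptk7, with SDs between 0.186 and 0.693 CPM.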
